A study of Mus musculus with 10 samples.

Results

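The interferon response genes described here are 37 mouse genes that cells switch on after an interferon signal, measured in whole ovaries by polyA RNA sequencing. They were taken by symbol from a written list, and all 37 were found among the 24306 genes of the count table. No member passed the main test, by edgeR, in any of the comparisons between genotypes, where 0% to 0.111% of all genes did. A second method, DESeq2, called Gbp2 lower in the ovaries with the Dmrt1 flox allele than in controls, where it called 1.78% of all genes. The members did vary from library to library, mostly together, also within a group. In the ovaries that carried the Dmrt1 flox allele 30 members had a positive estimate against controls and 7 a negative one, among which Gbp2 lay farthest down.

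Interferons are secreted proteins that cells release when they sense foreign or misplaced nucleic acid. Type I interferons signal through JAK kinases to a transcription factor complex that includes STAT2 and IRF9 and binds a DNA element called ISRE, and type II interferon acts mainly at an element called GAS. The genes switched on include sensors of viral RNA, enzymes that block viral replication, GTPases that attack intracellular parasites, and the machinery that presents peptides to T cells. Retinoic acid, the ligand of the RAR receptors deleted here, is known from cultured cells to induce some of these genes: Ddx58 encodes RIG-I, whose name stands for retinoic acid-inducible gene I, and Irf1 is another described target.

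The 10 libraries came from ovaries of mice aged 6 weeks, of mixed C57BL/6 and 129 background. Every animal carried floxed (f/f) alleles of Rara, Rarb and Rarg, which encode the retinoic acid receptors. Controls (n = 5) had no Sf1-Cre and were Dmrt1 +/+. Rar mutants (n = 3) had Sf1-Cre and were Dmrt1 +/+. Dmrt1 het Rar mutants (n = 2) had Sf1-Cre and 1 floxed Dmrt1 allele (fl/+). The Cre follows the Nr5a1 (Sf1) promoter, known from gonadal somatic cells, and not from germ cells or blood cells. The series' design text speaks of 2 genotypes with 5 replicates each. Pooling all ovaries with Cre gives that number, so the pooled comparison stands beside those by label. The labels do not say whether each library is a separate animal, so the p-values measure only the spread between these samples.

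Library totals ran from 21064856 to 25920131 counts. A count of 0 allows up to 3 counts, which is 0.116 to 0.142 CPM (counts scaled to a common library size) and covers counting error only. The lowest count of any member in any library was 4. Rarg averaged 29.5 ± 3.58 CPM (SD, n = 5) in controls, 17.2 ± 2.24 (n = 3) in Rar mutants and 21.2 ± 1.115 (n = 2) in Dmrt1 het Rar mutants, without overlap between mutants and controls, whereas Rara and Rarb overlapped. Reads from exons outside the deletions are counted too, so Rara and Rarb give no check of the labels. The ovary markers Foxl2, Fshr, Gdf9 and Zp3 were present in every library. The sample titles carry a number, and 4 libraries have one under 7800, namely both Dmrt1 het Rar mutants, Rar mutant 1 and control 1. Between them and the other 6, 2414 of 20570 genes passed the test. The labels do not say what the number is, and no Dmrt1 het Rar mutant has a higher number.

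Promoter sequence was examined first. The members were listed because interferon switches them on, so a high share of ISRE or GAS cores follows in part from that selection. RefSeq windows of 300 bases (250 before and 50 after the transcription start, build GRCm38.p6) were at hand for 28 of the 37 members. The ISRE core was read here as GAAA, any 2 bases and GAAA on either strand. It was present in 15 of the 28 (53.6%) and in 16 of their 33 windows, against 3.44% of all 32851 windows. A longer core was the same letters followed by C, and so always held the shorter. That longer core was present in 12 (42.9%) and in 13 of the 33 windows, against 0.819% of all windows. The GAS core TTCNNNGAA was present in 7 (25%) and in 7 of the 33 windows, against 8.3% of all windows. Retinoic acid response elements, as direct repeats spaced by 5 or by 2 bases, matched 0 of the 33 windows, against 0.0974% and 0.268% of all windows. A match describes letters and shows no binding, and no match speaks only for these windows.

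The stretches below come from RefSeq (GRCm38.p6) and are written 5′ to 3′ on the strand of the gene, with the ISRE cores in capitals (for Irf1, the GAS core). They show the same short core, on either strand, in front of members that differ in level and behaviour: Isg15 and Ifit1, which swing widely between libraries, Bst2, the most abundant member, and the neighbouring GTPase genes Gbp3 and Gbp2, which behave differently below. Irf1 is shown for its GAS core. The Bst2 stretch also holds a GAS core, which begins 136 bases before the start, overlaps the ISRE cores and is not set in capitals as a whole. They lie at chr4:156200850-156200921 (Isg15, minus strand), chr19:34640760-34640838 (Ifit1, plus), chr8:71537562-71537627 (Bst2, minus), chr3:142559974-142560025 (Gbp3, plus), chr3:142620594-142620623 (Gbp2, plus) and chr11:53769899-53769957 (Irf1, plus). Where the capitals read TTTC, any 2 bases and TTTC, the core lies on the other strand. The Gbp2 core lies inside the gene as GENCODE M21 draws it, so only 30 bases are given.
Isg15: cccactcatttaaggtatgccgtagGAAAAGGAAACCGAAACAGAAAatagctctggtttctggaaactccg
Ifit1: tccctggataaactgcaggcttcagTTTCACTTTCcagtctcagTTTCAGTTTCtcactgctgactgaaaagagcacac
Bst2: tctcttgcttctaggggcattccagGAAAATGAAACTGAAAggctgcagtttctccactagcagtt
Gbp3: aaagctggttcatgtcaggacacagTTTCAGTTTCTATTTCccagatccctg
Gbp2: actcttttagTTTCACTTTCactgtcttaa
Irf1: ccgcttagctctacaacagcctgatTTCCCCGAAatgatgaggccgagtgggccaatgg

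Levels of different genes were compared per length, with the FPKM values the authors deposited (mean over 10 libraries). Bst2, or tetherin, which holds budding virus at the cell surface, stood far above the rest at 149 FPKM. Gbp2, a guanylate-binding GTPase, followed at 18.1, then Ifi35 at 10.7 and Stat2, a subunit of the factor that binds ISRE, at 8.89. At the other end were Rsad2 (viperin, an antiviral enzyme) at 0.572 FPKM, Zbp1, a sensor of Z-form nucleic acid, at 0.450, Mx1 at 0.155 and Oas3 at 0.0539. In all, 8 members lay under 1 FPKM, 26 between 1 and 10, and 3 at 10 or more. The members' median was 3.18 FPKM, beside 2.46 for all genes. In controls Bst2 (161 ± 21.8 FPKM, SD, n = 5) and Gbp2 (24.6 ± 9.82) stood apart from their next neighbours by more than either SD, while most neighbours further down the order, such as Irf9, Ifit3, Rtp4 and Isg15 at 5.27 to 5.46 FPKM, did not. Mx1 is known to be defective in many laboratory strains, and the GENCODE annotation lists Mx2 as a polymorphic pseudogene.

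Values for single genes are given as CPM, over library totals scaled by edgeR's TMM method. They were compared with edgeR's quasi-likelihood test over all genes, with Benjamini-Hochberg adjusted p under 0.05 as a call. Errors beside log2 fold changes are standard errors. Because whole ovaries were sequenced, fewer cells of a type and less RNA per cell cannot be told apart.

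All 5 Rar-deleted ovaries together were compared with the 5 controls first, as the design text counts them. None of the 36 members tested was called (Oas3 was under the filter on low counts), where 0.111% of all 18954 genes were. At an unadjusted p under 0.05, 3 members lay higher and 1 lower, against 4.24% of all genes higher and 4.23% lower, and DESeq2 also called 0 members, where it called 0.745% of all genes. The estimate was positive for 29 members and negative for 7, with a median log2 fold change of 0.19, beside 50.2% positive and a median near 0 for all genes. The members with the smallest p were Gbp2 (-1.07 ± 0.34, adjusted p = 0.481), Trim30a (0.63 ± 0.23, 0.527), Ifih1 (0.47 ± 0.18, 0.549), Zbp1 (0.98 ± 0.42, 0.580), Ifi44 (0.64 ± 0.30, 0.605) and Usp18 (0.46 ± 0.24, 0.630). For no member tested did all 5 Rar-deleted libraries lie on 1 side of all 5 controls, which held for 0.681% of all genes above and 1.08% below.

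Whichever library was left out, 25 to 31 of the 36 members kept a positive estimate, but the size of the median moved. It was 0.09 without Rar mutant 2, 0.31 without Rar mutant 3 and 0.33 without control 2. Among the 6 libraries with title numbers over 7800, 4 controls and 2 Rar mutants, the median was 0.05, with 22 members positive and 14 negative.

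Rar mutants (n = 3) against controls gave 0 of 37 members called, where 0.00972% of all 20570 genes were, and DESeq2 called 0 as well, where it called 1.74%. At an unadjusted p under 0.05, 1 member lay higher (Zbp1) and 1 lower (Gbp2), against 5.61% and 3.84% of all genes. The estimate was positive for 26 members and negative for 11, and the median was 0.12, beside 46.9% positive and a median of -0.02 for all genes. No member had all 3 Rar mutants on 1 side of the controls, against 2.41% of all genes above and 2.74% below. Without Rar mutant 2 the sign turned: 11 members were positive and the median was -0.14. Without Rar mutant 3, 33 were positive and the median was 0.32. By median level of the members, the 3 Rar mutants held both the highest and the lowest library of the series.

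Dmrt1 het Rar mutants (n = 2) against controls gave 0 of 37 members called, where 0.0194% of all genes were. DESeq2 called 1, Gbp2, where it called 1.78% of all genes. At an unadjusted p under 0.05, 6 members lay higher and 1 lower, against 8.06% and 9.26% of all genes. The estimate was positive for 30 members and negative for 7, with a median of 0.34, beside 48% positive and a median of -0.02 for all genes. Without Dmrt1 het Rar mutant 1 the median was 0.13. Both libraries lay above all 5 controls for 10 members (Ddx58, Ifih1, Zbp1, Ifit2, Oas3, Trim30a, Usp18, Dtx3l, Parp14 and Irgm1), against 14.1% of all genes, and below all controls for Gbp2, against 14.3%. Both of these libraries have title numbers under 7800, and so has only 1 control. With a term for the title number in the fit the median was 0.45 and 0 members were called, against 0.00486% of all genes. The comparison shares its controls with that of the Rar mutants.

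**Figure D1:**
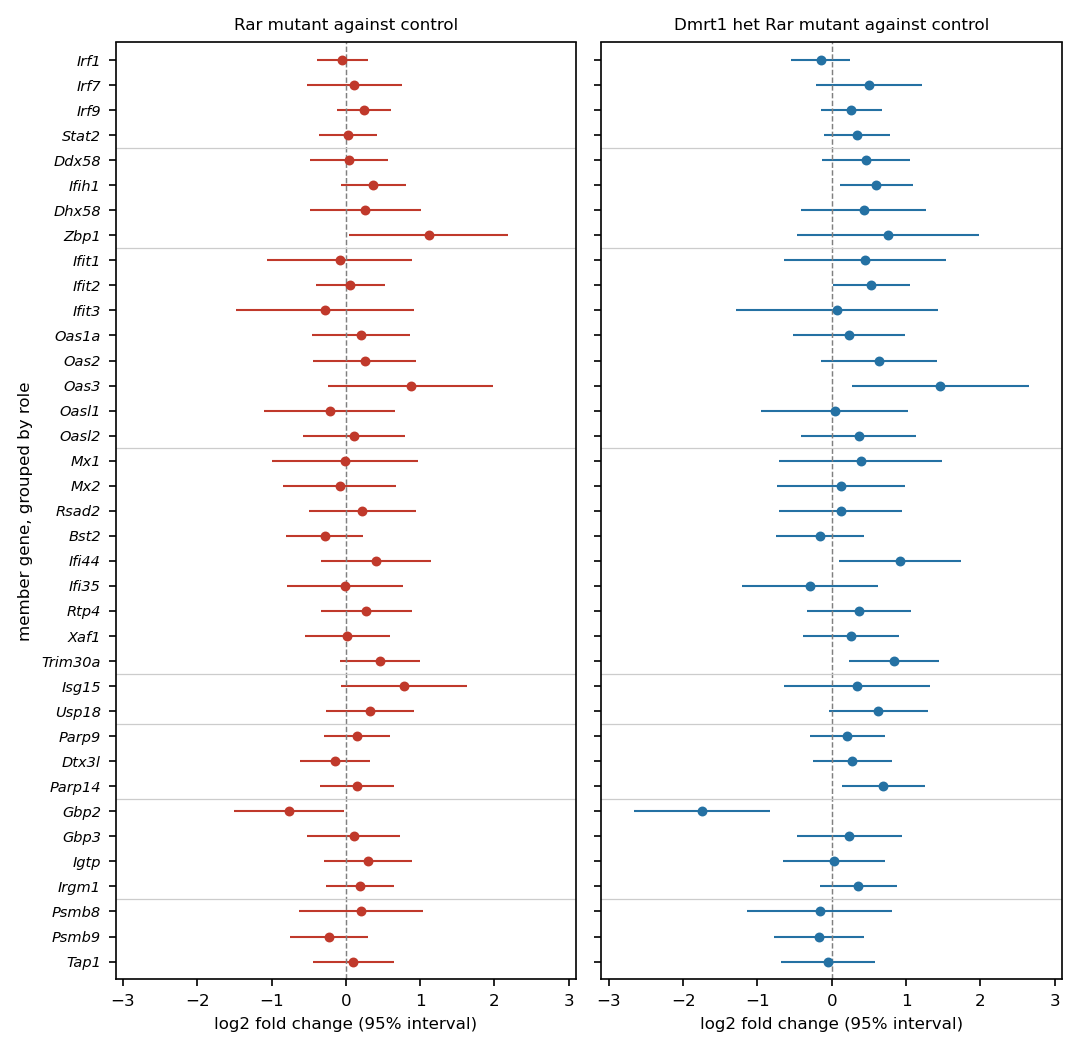
Log2 fold change (x axis) of each of the 37 members (y axis, grouped by role) in Rar mutants (n = 3, left) and Dmrt1 het Rar mutants (n = 2, right) against the same 5 controls; points are edgeR estimates and lines their approximate 95% intervals. Most intervals span 0, and Gbp2 is the member farthest to the left in both panels, at -0.76 and -1.74.

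The Dmrt1 het Rar mutants were also set directly against the Rar mutants, which gave 0 of 37 members called, where 0% of all 20570 genes were. At an unadjusted p under 0.05, 0 members lay higher and 1 lower (Gbp2), against 7.56% and 9.3% of all genes. The estimate for Dmrt1 het over Rar mutant was positive for 28 members and negative for 9, beside 49% positive for all genes. The median was 0.21, and it was 0.03 without Rar mutant 3 and 0.46 without Rar mutant 2. Both Dmrt1 het libraries lay above the 3 Rar mutants for Ifit2, Dtx3l and Parp14, against 19.8% of all genes, and below them for Gbp2, against 19.5%. DESeq2 called 0 members in this comparison, where it called 3.66% of all genes.

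The 4 transcription factors of the response overlapped between groups in every comparison. In Dmrt1 het Rar mutants against controls their median log2 fold change was 0.30, beside 0.34 for all members. The estimates there ran from -0.15 for Irf1 to 0.50 for Irf7. Stat2 measured 35.4, 47.4, 35.9, 31.0 and 35.6 CPM in controls 1 to 5, 41.2, 43.8 and 28.4 in the Rar mutants, and 43.8 and 50.3 in the Dmrt1 het Rar mutants. The groups overlapped, and the log2 fold change from controls was 0.03 ± 0.18 in the Rar mutants and 0.34 ± 0.20 in the Dmrt1 het group. Irf9, its DNA-binding partner, ranged from 25.2 to 35.7 CPM in controls, from 30.1 to 42.8 in Rar mutants and from 35.0 to 36.2 in Dmrt1 het Rar mutants (0.25 ± 0.17 and 0.27 ± 0.19). Irf7, which amplifies type I interferon production and is itself induced, swung more, from 6.30 to 13.0 CPM in controls and from 6.74 to 15.5 in the others.

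Irf1, a factor tied to type II interferon and to retinoic acid, had the narrowest range of the 37 members over the 10 libraries. It measured 35.1, 36.6, 38.5, 34.2 and 31.98 CPM in controls, 29.4, 43.6 and 29.3 in Rar mutants, and 29.3 and 34.3 in Dmrt1 het Rar mutants. The Rar mutants thus lay on both sides of the controls. Its log2 fold change was -0.05 ± 0.16 (95% interval -0.39 to 0.30) in Rar mutants and -0.15 ± 0.18 (-0.55 to 0.25) in Dmrt1 het Rar mutants, so a 2-fold change in either direction lies outside both intervals.

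Among the sensors, Ddx58 (RIG-I, a cytoplasmic RNA helicase) measured 33.6, 34.4, 31.6, 25.6 and 26.8 CPM in controls and 38.2, 38.0 and 17.8 in Rar mutants. Rar mutants 1 and 2 lay above all controls and Rar mutant 3 below all of them. It measured 47.0 and 36.8 in Dmrt1 het Rar mutants, both above the controls. The log2 fold change was 0.04 ± 0.24 (95% interval -0.48 to 0.57) in Rar mutants and 0.46 ± 0.27 (-0.12 to 1.05) in Dmrt1 het Rar mutants. An ISRE core begins 2 bases after its RefSeq start, and no retinoic acid element was matched in its window.

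Ifih1 encodes MDA5, which senses long double-stranded RNA. It measured 12.4, 16.8, 11.5, 12.1 and 13.1 CPM in controls, 19.9, 18.9 and 12.2 in Rar mutants, and 22.2 and 17.7 in Dmrt1 het Rar mutants. Of the 5 Rar-deleted libraries, 4 lay above every control and Rar mutant 3 among them (0.37 ± 0.20, adjusted p = 0.618, and 0.60 ± 0.22, adjusted p = 0.249, in the 2 groups by edgeR). Zbp1, which can trigger necroptosis, measured 0.52 to 1.53 CPM in controls, 1.18, 4.56 and 1.24 in Rar mutants and 2.06 and 1.58 in Dmrt1 het Rar mutants, so that its estimate of 1.11 ± 0.49 in Rar mutants (adjusted p = 0.509) leaned on Rar mutant 2. Dhx58 (LGP2, a regulator of the other 2 helicases) ranged from 2.61 to 4.81 CPM in controls and from 1.80 to 5.35 in the rest.

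The Ifit proteins bind viral RNA, and Ifit3 and Ifit1 had the widest spread of the members among controls. Ifit3 measured 4.79, 23.4, 7.96, 6.10 and 4.78 CPM in controls, a highest-to-lowest ratio of 4.90. It measured 10.5, 8.92 and 3.86 in Rar mutants and 11.6 and 8.24 in Dmrt1 het Rar mutants. Control 2 was the highest of all 10 libraries, and the mutants lay within the control range save for Rar mutant 3, which was below it. Control 2 was also the highest library for Ifit1, at 16.1 CPM, with the other controls at 4.30 to 8.74 and Dmrt1 het Rar mutant 1 at 14.8. Ifit2 was steadier, at 7.63 to 12.2 CPM in controls, 7.47 to 13.1 in Rar mutants and 14.8 and 13.9 in Dmrt1 het Rar mutants.

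The Oas genes encode enzymes that make the activator of RNase L, and Oasl1 and Oasl2 are relatives. Oas3, the least abundant member, ranged from 0.16 to 0.35 CPM in controls and measured 0.28, 0.83 and 0.21 in Rar mutants and 0.76 and 0.57 in Dmrt1 het Rar mutants. Both Dmrt1 het libraries and Rar mutant 2 were above all controls, at a log2 fold change of 1.46 ± 0.54 (adjusted p = 0.249) in the Dmrt1 het group, the largest positive estimate among members there. Oas2 and Oas1a ranged from 1.46 to 4.79 CPM over all libraries. Oasl2 ranged from 14.1 to 41.4 CPM in controls, with control 2 again the highest, and Oasl1 from 0.83 to 2.56 over all libraries.

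Most other antiviral effectors overlapped between groups. Bst2 measured 119, 138, 172, 158 and 146 CPM in controls, 180, 94.9 and 86.7 in Rar mutants and 142 and 119 in Dmrt1 het Rar mutants. Rar mutants 2 and 3 lay under all controls and Rar mutant 1 above them. Trim30a, a regulator of inflammatory signalling, measured 9.99, 8.19, 7.78, 5.78 and 7.55 CPM in controls, 14.1, 11.7 and 6.65 in Rar mutants, and 14.2 and 13.9 in Dmrt1 het Rar mutants. As for Ifih1, Ddx58 and Usp18, 4 of the 5 Rar-deleted libraries were above every control. The share of all genes with that pattern was not computed, so it is not read as a result about these members. The log2 fold change of Trim30a was 0.46 ± 0.25 in Rar mutants and 0.84 ± 0.27 in Dmrt1 het Rar mutants (adjusted p = 0.616 and 0.243 by edgeR). The Trim30a estimate in Dmrt1 het Rar mutants was 0.43 with the title-number term.

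Ifi44 reached 7.10 and 4.52 CPM in Dmrt1 het Rar mutants, beside 1.92 to 4.61 in controls and 3.09 to 5.31 in Rar mutants. Ifi35 measured 11.3, 15.1, 36.1, 18.2 and 16.2 CPM in controls, a ratio of 3.21 set by control 3, and 13.2 to 26.3 in the mutants. Mx1, a GTPase that blocks influenza virus, stayed between 0.30 and 0.92 CPM in every library, Mx2 between 1.116 and 4.01, and Rsad2 between 1.45 and 3.90. Rtp4 ran from 8.10 to 21.2 CPM and Xaf1 from 5.71 to 11.7, each highest in Rar mutant 2.

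Isg15, a ubiquitin-like modifier, measured 2.78, 6.08, 3.71, 4.80 and 2.65 CPM in controls, 3.31, 10.7 and 6.65 in Rar mutants and 6.22 and 3.90 in Dmrt1 het Rar mutants. It was the member that stood highest above the control mean in Rar mutant 3, by 0.79 on the log2 scale, in a library where 31 of 37 members were below that mean. Its fold change in Rar mutants was 0.78 ± 0.39 (adjusted p = 0.572). Usp18, which removes Isg15 from proteins and dampens receptor signalling, ranged from 3.34 to 5.17 CPM in controls and measured 5.82, 6.85 and 2.92 in Rar mutants and 6.77 and 6.01 in Dmrt1 het Rar mutants.

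Parp9, its partner Dtx3l and Parp14 act in ADP-ribosylation after interferon. Parp14 measured 19.3, 18.9, 16.2, 13.3 and 11.4 CPM in controls, 21.7, 18.6 and 12.2 in Rar mutants and 26.7 and 24.5 in Dmrt1 het Rar mutants. Both Dmrt1 het libraries were above every other library (0.70 ± 0.25 over controls, adjusted p = 0.246), and all 4 libraries with title numbers under 7800 were above the other 6, so genotype and title number cannot be told apart for these values. Parp9 ranged from 17.2 to 34.2 CPM and Dtx3l from 12.01 to 24.8 over all libraries, each lowest in Rar mutant 3.

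**Figure D2:**
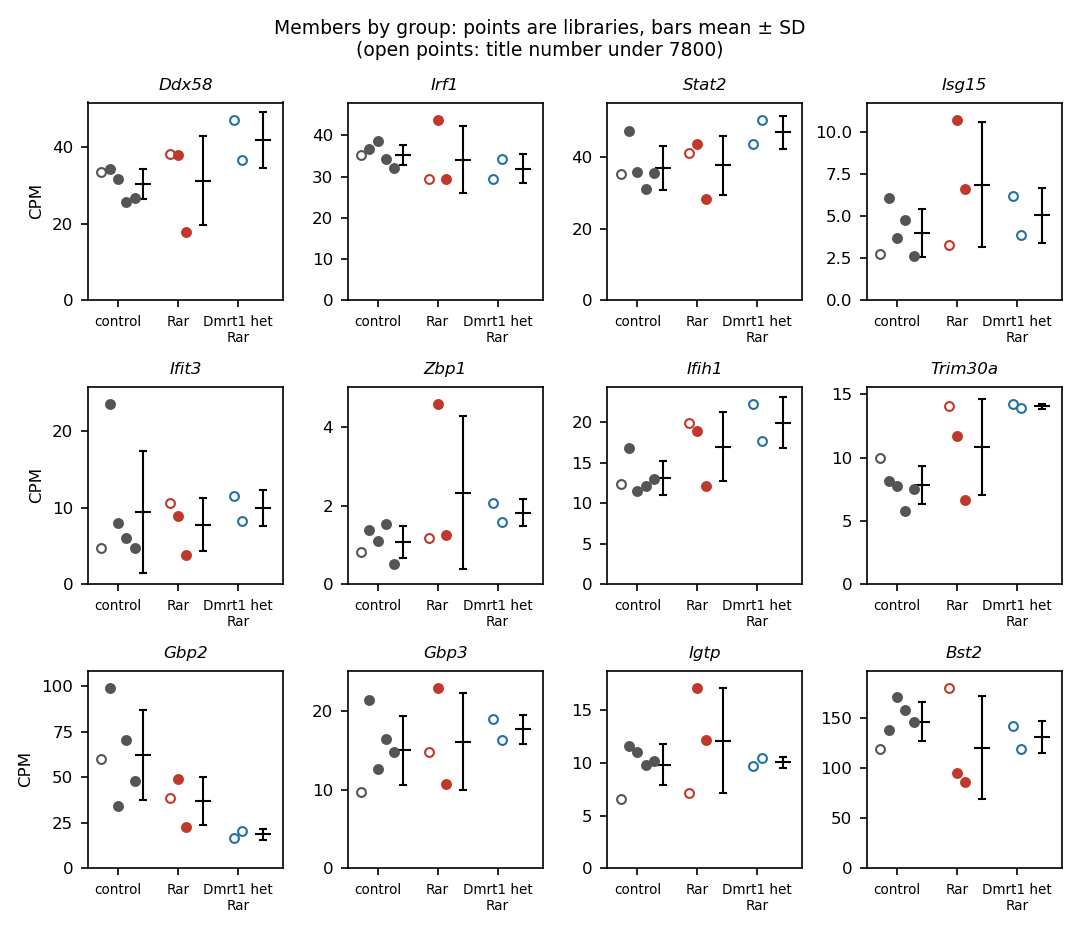
CPM (y axis, from 0) of 12 members in each library by group (x axis), with mean ± SD beside the points (control n = 5, Rar mutant n = 3, Dmrt1 het Rar mutant n = 2); open points are libraries with title numbers under 7800. Gbp2 runs from 34.0 to 98.7 in controls and lies at 16.6 and 20.6 in Dmrt1 het Rar mutants, while Irf1 stays between 29.3 and 43.6 in all libraries.

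The GTPases that defend against intracellular pathogens included the member that departed from the rest. Gbp2 measured 59.95, 98.7, 34.0, 70.7 and 47.7 CPM in controls. It measured 38.7, 48.9 and 22.7 in Rar mutants and 16.6 and 20.6 in Dmrt1 het Rar mutants. Both Dmrt1 het libraries lay below all 8 others, and the Rar mutants overlapped the lower part of the control range. The log2 fold change was -0.76 ± 0.34 in Rar mutants (adjusted p = 0.517), -1.74 ± 0.42 in Dmrt1 het Rar mutants (adjusted p = 0.243, 95% interval -2.66 to -0.83) and -0.98 ± 0.42 between them (adjusted p = 0.282), by edgeR. DESeq2 called the Dmrt1 het difference (-1.74, adjusted p = 0.00345). With the title-number term it was -1.75 (adjusted p = 0.691), in a fit that called 1 gene in all. Over all 17 settings tried for this comparison the estimate stayed between -2.02 and -1.51. Between the sets of libraries by title number Gbp2 differed by 0.015 ± 0.397.

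The other GTPase genes did not share the low level of Gbp2 in Dmrt1 het Rar mutants, although Gbp3 lies 47392 bases away from it on chromosome 3. Within the other groups Gbp2 and Gbp3 were alike in part. Both were highest in control 2 and next in control 4 among controls, and highest in Rar mutant 2 and lowest in Rar mutant 3 among Rar mutants. Gbp3 measured 9.70 to 21.4 CPM in controls, 14.7, 22.8 and 10.7 in Rar mutants and 19.0 and 16.3 in Dmrt1 het Rar mutants (0.24 ± 0.32). Irgm1 ranged from 19.97 to 28.7 CPM in controls and measured 32.5 and 30.03 in Dmrt1 het Rar mutants. Igtp is another such GTPase. It measured 6.59, 11.6, 11.03, 9.79 and 10.2 CPM in controls, 7.12, 17.1 and 12.2 in Rar mutants and 9.71 and 10.4 in Dmrt1 het Rar mutants.

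Igtp was the 1 member called between the libraries by title number. In the fit that kept the genotype groups as terms, it was lower in the 4 libraries under 7800 (-0.85 ± 0.18, adjusted p = 0.0217). That is 1 of 37 members, where 11.7% of all genes were called and 4.02% were lower. At an unadjusted p under 0.05, 1 member lay higher and 3 lower, against 16.3% and 15.5% of all genes. DESeq2 called 2 members, Igtp and Isg15, where it called 20.3% of all genes. The call rests on control 1 and Rar mutant 1, the libraries that set the sets apart within a group: without control 1 the adjusted p was 0.0794 and without Rar mutant 1 it was 0.179. Next by p were Isg15 (-0.97 ± 0.37, adjusted p = 0.109), Ifi35 (-0.84 ± 0.35), Trim30a (0.52 ± 0.22), Oasl1 (-0.87 ± 0.40) and Psmb8 (-0.81 ± 0.39). The median over members was -0.23, with 14 positive and 23 negative, beside 47.9% positive for all genes, and with 1 library left out it ran from -0.40 (8 positive, 29 negative) without Rar mutant 3 to -0.02 without Rar mutant 2. Only Parp14 had the 4 libraries all above the other 6, against 11.7% of all genes, and 0 members had them all below, against 10.9%.

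The 3 antigen-processing members sit side by side on chromosome 17, with Tap1 and Psmb9 overlapping by 212 bases. Psmb8, an immunoproteasome subunit, measured 6.38, 8.66, 15.9, 7.71 and 6.39 CPM in controls, 5.98, 17.1 and 7.98 in Rar mutants, and 8.41 and 7.67 in Dmrt1 het Rar mutants. Control 3 and Rar mutant 2 stood above the other 8 libraries. Psmb9, another such subunit, ranged from 4.38 to 7.87 CPM and Tap1, a subunit of the peptide pump, from 10.6 to 25.5 over all libraries. All 3 estimates were negative in Dmrt1 het Rar mutants against controls, at -0.17 to -0.05. All 8 Ifit and Oas genes were positive there, at 0.04 to 1.46. With the title-number term the sign of the 3 turned, to 0.06 to 0.50, and the 8 stayed positive, at 0.22 to 1.95. No difference between these roles was tested.

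**Figure D3:**
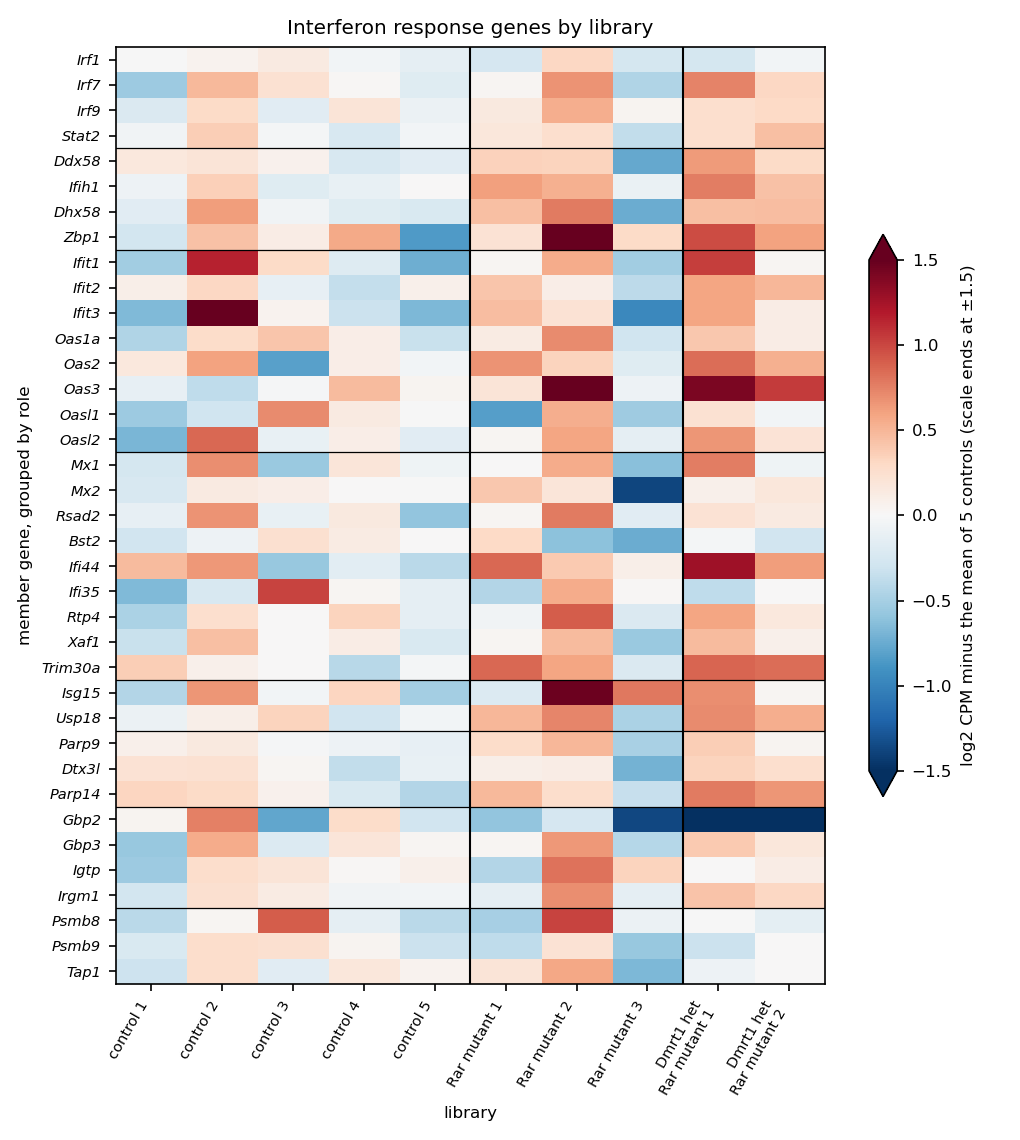
Log2 CPM minus the mean of the 5 controls (colour, red higher and blue lower, ends at ±1.5) for each member (rows, grouped by role) in each library (columns). Whole columns lean 1 way, red in control 2, Rar mutant 2 and Dmrt1 het Rar mutant 1 and blue in Rar mutant 3, and the Gbp2 row runs against both Dmrt1 het columns.

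How the members moved together was described library by library, as the deviation of log2 CPM from the mean of the 5 controls. Among controls the median deviation over the 37 members was -0.24, 0.28, 0.01, 0.02 and -0.13 in controls 1 to 5. It was 0.12, 0.55 and -0.37 in Rar mutants 1 to 3, and 0.45 and 0.17 in the Dmrt1 het Rar mutants. In control 2, 33 of 37 members were above the control mean. In Rar mutant 2, 35 were above it, and that library had the highest value for 17 members. In Rar mutant 3, 31 were below it, and that library had the lowest value for 14. Dmrt1 het Rar mutant 1 was highest for 10 members. The single Rar mutant libraries thus ran from 0.55 to -0.37, and the largest median fold change between genotype groups in the main fits was 0.34. A range of single libraries and a difference of group estimates are unlike measures, so their sizes are not compared.

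**Figure D4:**
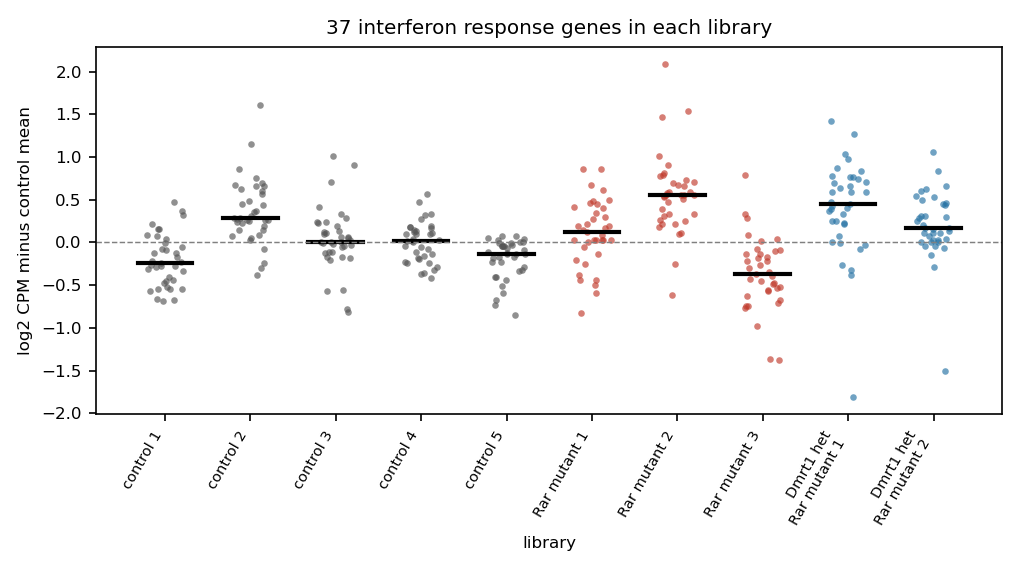
Deviation of log2 CPM from the mean of the 5 controls (y axis) for the 37 members (points) in each library (x axis), with the median as a black bar. The bars run from -0.37 in Rar mutant 3 to 0.55 in Rar mutant 2, and those of the 5 controls from -0.24 to 0.28.

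Across the 10 libraries the median Pearson correlation over the 666 pairs of members was 0.52, with 348 pairs above 0.5 and 77 below 0. It was 0.55 after the group means were removed. Each member's median correlation with all genes was close to 0. The points share library, depth and scaling, so this is a description of these libraries. The median was 0.46 to 0.57 when any 1 library was left out and 0.48 without control 2 and Rar mutant 3, and Spearman's rho gave 0.50. The closest pairs were Irf7 and Xaf1 (r = 0.95), Ddx58 and Dtx3l (0.94), Gbp3 and Oasl2 (0.92) and Ifit1 and Ifit3 (0.90). Gbp2 had a median correlation of -0.05 with the other members, Bst2 0.07 and Ifi35 0.13, with the differences between groups left in.

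**Figure D5:**
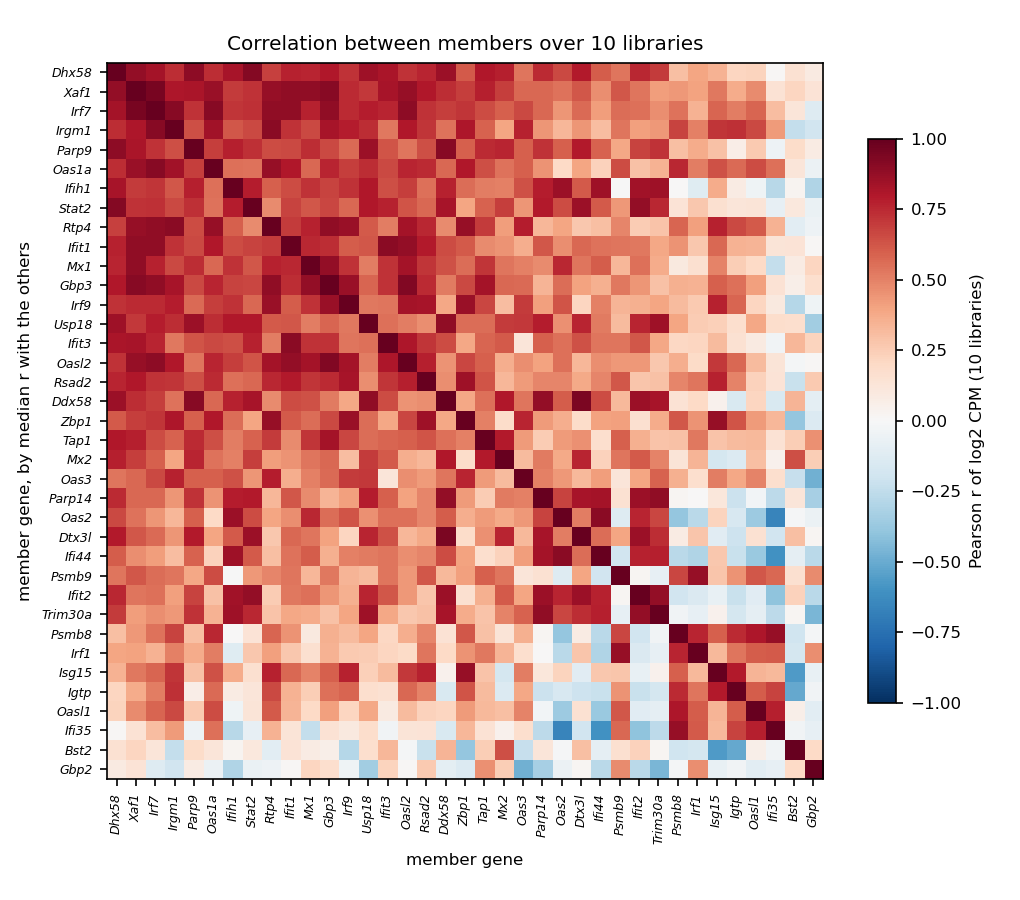
Pearson correlation of log2 CPM over the 10 libraries (colour) between each pair of the 37 members, ordered by median correlation with the others. Most pairs are red, from Dhx58, Xaf1 and Irf7 at the top, and Gbp2, Bst2 and Ifi35 form the pale rows at the end.

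The rest of the pathway was read from lists of genes by role. Genes for interferons themselves were not analysed here. Of 6 receptor genes, 9 JAK-STAT and feedback genes, 13 genes of nucleic acid sensing, 55 other interferon-stimulated genes and 17 genes of class I antigen presentation, 0 were called in any of the 4 comparisons between genotypes by edgeR. At an unadjusted p under 0.05 in Rar mutants against controls, 5 of the 55 other interferon-stimulated genes passed, 4 higher and 1 lower, a share close to that over all genes (5.61% higher and 3.84% lower). Their median log2 fold change was 0.08 there and 0.14 in Dmrt1 het Rar mutants. Ifnlr1, the receptor for type III interferon, stood at -0.80 ± 0.30 in Rar mutants (adjusted p = 0.402). Jak1, the kinase shared by the receptors, stood at 0.58 ± 0.21 between Dmrt1 het Rar mutants and Rar mutants (adjusted p = 0.245).

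Further along the pathway, Tmem173 (STING, the adaptor for cytoplasmic DNA) stood at 0.50 ± 0.23 in Rar mutants over controls (adjusted p = 0.542) and -0.89 ± 0.30 for Dmrt1 het Rar mutants over Rar mutants (adjusted p = 0.231). Isg20, an antiviral exonuclease, showed 1.04 ± 0.38 and -1.37 ± 0.51 in the same comparisons (adjusted p = 0.392 and 0.250). H2-Q7, a non-classical class I gene, stood at 0.74 ± 0.22 in Dmrt1 het Rar mutants over controls (adjusted p = 0.243). Ly6e, a surface protein, stood at -1.11 ± 0.29 there (adjusted p = 0.243) and was called lower in the libraries with title numbers under 7800 (-0.67 ± 0.18, adjusted p = 0.0449). Between those sets edgeR also called Nmi lower (-0.65 ± 0.19, adjusted p = 0.0492), and Tlr3 (0.69 ± 0.18, adjusted p = 0.0396) and Gbp9 (1.15 ± 0.32, adjusted p = 0.0466) higher. These are 1 of 13 sensing genes, and 1 higher and 2 lower of the 55 other interferon-stimulated genes. No gene of the other pathway lists was called, where 11.7% of all genes were. In the authors' deposited table of 185 genes that differed between Rar mutants and controls, 0 of the 37 members and 0 genes of these pathway lists appear. That table holds 185 of 24306 genes, so absence from it is not read as a result for lists of this size.

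Marker genes of other cells were summed in the same libraries. The summed CPM of 7 pan-leukocyte genes was 58.9 to 118 in controls, 71.1 to 105 in Rar mutants and 74.0 to 96.7 in Dmrt1 het Rar mutants. That of 15 T and NK cell genes was 22.3 to 30.4 in controls, 43.6 in Rar mutant 2 and 27.6 to 31.6 in the other Rar mutants, and 18.9 to 19.2 in Dmrt1 het Rar mutants. Thy1 alone made up 10.1 to 32.7 CPM of it. The other 14 genes summed to 8.47 to 10.9 in controls, 8.85 to 10.9 in Rar mutants and 7.15 to 9.12 in Dmrt1 het Rar mutants, and so overlapped. The summed CPM of 14 macrophage genes was 305 to 608, 317 to 515 and 292 to 415 in the 3 groups. The defining markers Ptprc, Adgre1, Cd3e, Ms4a1, Ncr1 and Siglech were above 0 in every library, with Cd3e at 0.0915 to 0.415 CPM. Ptprc measured 9.60 to 11.3 CPM in the 4 libraries with title numbers under 7800 and 4.18 to 7.87 in the other 6. Adgre1 measured 12.7 to 15.4 and 6.31 to 11.6 in the same sets. Such a split, with the 4 above, held for 11.7% of all genes, and the other defining markers overlapped. The part of leukocytes in the members' values was not tested. Bst2 is itself a marker of plasmacytoid dendritic cells. Their other 8 listed genes summed to 212 to 284 CPM over all libraries, of which Tcf4 alone was 184 to 245, and Siglech, their more specific marker, stayed at 0.415 to 1.46.

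Other parts of the ovary differed between the same libraries. The summed CPM of 10 ovulation genes was 685 in Rar mutant 2 and 2643 in Rar mutant 3, the libraries at the upper and lower end for the members, and 30.1 to 74.6 in the other 8. That of 12 surface epithelium genes was 407 to 714 in controls, 368 to 482 in Rar mutants and 255 to 280 in Dmrt1 het Rar mutants, the group with the lowest Gbp2. The part of these cells in the members' values was not tested.

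Some members share sequence with other genes, and how the authors' counting treated such reads is not given in the sources used here. Of the 50-base words in annotated exons, Ifit3 shares 51.2% with Ifit3b and Oas1a 57.6% with Oas1g, so their counts are uncertain. Igtp shares 11.8% with Irgm2, Rtp4 11.6% with Gm45338, Ifit1 7.06% with Ifit1bl2 and Trim30a 5.98% with Trim30d, while Gbp2 shares 2.03% with Gbp2b. Exons of Parp9 and Dtx3l overlap on opposite strands, where the genes share 682 bases, as do those of Psmb9 and Tap1. Psmb8 (11.6% with Gm20496) and Ifi35 (10.4% with Gm11626) have antisense partners, and although the kit keeps the strand, whether the counting used it is not given.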

How the data were processed

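PolyA RNA from 10 mouse ovary samples was sequenced with a stranded mRNA kit, per the labels' protocols. Per the submitters' processing notes, Trimmomatic 0.32, STAR 2.4.2a, SAMtools 1.0 and DESeq2 1.12.3 were used on GRCm38; the counting tool and annotation are not given in the sources used here. The authors deposited raw counts per gene. The authors also deposited normalized FPKM values, used only to compare levels between genes. The authors' deposited table of 185 genes holds, per its header, a signal (the mean normalised count), a log2 fold change and its error, a Wald score, and p-values; only its gene names were used.

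Counts were tested in R 4.3.3 with edgeR 4.0.16 (TMM, filterByExpr, robust quasi-likelihood test, two-sided) and adjusted over all genes by Benjamini-Hochberg; DESeq2 1.42.0 was an alternative. The pooled comparison used a 2-group fit of 18954 genes, the others 1 fit of all 3 groups (20570 genes, common spread), with a title-number term for that comparison. The standard error is the fold change over the square root of F, so it and the 95% interval are approximate. The test was run on simulated data whose spread was estimated with the title-number term in the model. The genotype simulations held no title-number effect, and the comparison between the mutants was not checked. They therefore do not show how the test behaves with that variation present. Deviations and correlations used log2 CPM with a prior count of 2. Gene positions and shared 50-base words came from GENCODE M21, and promoters from RefSeq GRCm38.p6.

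The members and all gene lists were chosen with earlier results of these data known. Genes were named by a rule: for each comparison the 6 members with the smallest p and any called, the 4 highest and 4 lowest by FPKM, the 4 with the widest control spread, and Ddx58, Irf1, Stat2 and Irf9; from pathway lists those called or among the 2 smallest p, of which a part is printed. Other members are given by their ranges. The retinoic acid motifs, the correlations with libraries left out, the scaling by library totals and the marker sums without Thy1 or Bst2 were added after the data were seen. A certain gene of the pathway lists is left out of the text.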

Additional observations from a re-analysis of the deposited data

Results flagged for a closer look

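In 8 of 74 sets of 5 libraries (each member in controls and in all Rar-deleted ovaries), 1 library lay far from the other 4 for its range. For independent sets of normally distributed values the cutoff used would flag about 1 in 20. The members vary together in the same libraries, and the Rar-deleted sets pool 2 genotypes. The number of sets flagged can therefore not be set against that rate. In controls, control 2 was high for Dhx58 (4.81 CPM, next 2.98) and Ifit3 (23.4, next 7.96), and control 3 was high for Ifi35 (36.1, next 18.2) and Psmb8 (15.9, next 8.66). Among the Rar-deleted ovaries, Rar mutant 2 was high for Zbp1 (4.56 CPM, next 2.06) and Psmb8 (17.1, next 8.41). Rar mutant 3 was low for Mx2 (1.116 CPM, next 3.19) and Usp18 (2.92, next 5.82). The cause was not tested.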

How the results depend on the processing

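No member was called in the pooled, the Rar mutant or the Dmrt1 het against Rar mutant comparison under any setting tried. DESeq2 called 1 member (Gbp2) in Dmrt1 het Rar mutants against controls, and 2 (Igtp and Isg15) between the sets by title number, where leaving out a library gave 0 to 2: 0 without control 1 or Rar mutant 1, and 2 without control 3 (Igtp, Ifi35) or Rar mutant 3 (Igtp, Rtp4). The number of all genes called moved far more. In the pooled comparison it was 21, and 180 with DESeq2, 40 with the title-number term, 142 among title numbers over 7800, and 5 to 52 with 1 library left out. In Rar mutants it was 2, and 372 with DESeq2, 85 with the term, 142 among the higher numbers, 1 in a 2-group fit and 1 to 384 (384 without Rar mutant 1) with 1 library left out. In Dmrt1 het Rar mutants it was 4, and 329 with DESeq2, 1 with the term and 0 to 364 (364 without control 1). Between the mutants it was 0, and 626 with DESeq2 and 0 to 335 (335 without Rar mutant 1). Between title numbers it was 2414, and 3958 with DESeq2 and 118 to 3494 with 1 library left out. The causes were not tested. With the replicate number of the titles as a block, 0 genes were called in the pooled comparison, 0 in Dmrt1 het Rar mutants and 2 in Rar mutants. Same-numbered samples correlated at -0.09 to 0.44, so the numbers are not taken to pair the samples, and the block changed no member's call. With it the members' median was 0.05 in the pooled comparison (23 positive, 13 negative), 0.03 in Rar mutants (22 and 15) and 0.18 in Dmrt1 het Rar mutants (25 and 12). Of the 97 named fold changes, 9 changed sign under some setting, those of Ddx58, Irf1, Stat2 and Irf9. The other genes were named for a small p or a call in the same fits, so their steady signs follow in part from that choice. Over all 37 members, leaving out Rar mutant 2 took the positive estimates in Rar mutants from 26 to 11. In the pooled comparison Ddx58 was -0.060 with the block and -0.091 among the higher numbers, Irf1 0.044 among the higher numbers, and Stat2 -0.0036 with the block and -0.059 among the higher numbers. In Rar mutants Ddx58 was -0.16 with the block, -0.012 with the term, -0.091 among the higher numbers and -0.13 to 0.32 with 1 library left out (lowest without Rar mutant 1, highest without Rar mutant 3). Irf1 there was 0.044 among the higher numbers and -0.26 to 0.047 with 1 library left out, and Stat2 -0.079 with the block, -0.059 among the higher numbers and -0.091 to 0.19 with 1 left out. Between the mutants, with 1 library left out, Irf1 was -0.22 to 0.11 and Irf9 -0.065 to 0.18 (-0.046 with the block). Between title numbers Stat2 was -0.081 to 0.19 with 1 left out. With library totals in place of TMM, 11 members lay above and 1 below all controls in Dmrt1 het Rar mutants. Set against all Rar mutants, 6 lay above and 0 below. The share over all genes was not computed with that scaling, so these counts cannot be read as a result about the members. With 2 Dmrt1 het libraries, a library left out leaves 1, assumed to vary like the other groups.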
